A study of Mus musculus with 8 samples.

Results

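Genes of glycolysis and of the transcriptional response to low oxygen were followed across 8 bulk RNA-seq libraries of thymic ILC2, the innate lymphocytes of type 2 immunity, which make IL-5 and IL-13 but have no antigen receptor. The set held 33 genes, taken as the rows of the count table whose Ensembl ID maps to 1 of 33 symbols, out of 50686 gene IDs in all. All 33 were found, passed the filter on low counts and were tested together with all other genes, 13644 in total. The groups, of 2 libraries each, were E47-ER cells and GFP cells, both after 4 h and both after 16 h of 4-hydroxy-Tamoxifen. All libraries share the plck-Id1 genotype, the C57BL/6 strain and the thymus as tissue. All cells had been grown in the cytokines IL-33, IL-25 and IL-7, transduced with the MIGR1 retrovirus, sorted for GFP and given the drug. E47-ER cells carried the vector with a fusion of E47, a product of the E protein gene Tcf3, and the estrogen receptor, which the drug activates. GFP cells carried the vector with GFP alone. Id1 binds E proteins and blocks their action, and the plck promoter drives it in the T lineage, so the control cells are not wild type. The construct is expressed from a retrovirus rather than from Tcf3 itself. No E47-ER library without the drug was analysed here, so a difference present before the drug and one made by it cannot be told apart. Whether replicates are different animals or cultures is not given in the sources used here, so the p-values reflect the scatter of these libraries alone, which may be technical.

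Glycolysis turns glucose into pyruvate in the cytosol and yields a little ATP at each pass, and lactate dehydrogenase then turns pyruvate into lactate and restores the cofactor that the pathway needs. Hypoxia-inducible factor 1 is a pair of Hif1a, its regulated subunit, and Arnt: prolyl hydroxylases of the Egln family mark Hif1a for destruction when oxygen is present, and stabilised Hif1a raises glucose transporters, nearly every glycolytic enzyme, Pdk1, Vegfa, Bnip3 and the hydroxylase Egln3 itself. In activated lymphocytes, ILC2 among them, the same genes also follow growth signals such as Myc and mTORC1 at normal oxygen.

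Promoter windows are shown for the 3 members that passed the test with all 8 libraries (Hif1a, Egln3 and Ak4) and for Ldha and Pgk1, glycolytic genes with well-known hypoxia response elements. Each is the 250 bases before the start site that RefSeq gives on GRCm38.p6, 5′ to 3′ on the gene's strand. Capitals mark the core of the hypoxia response element, ACGTG or GCGTG on either strand, and the E box CAGCTG, a hexamer of the kind that E proteins bind. CACGTG counts as a match on each strand. Hif1a lies at chr12:73907617-73907866, plus strand. Egln3 lies at chr12:54203875-54204124, minus strand. Ak4 lies at chr4:101419039-101419288, plus strand, the first of 4 listed starts. Ldha lies at chr7:46845554-46845803, plus strand, the first of 2 listed starts. Pgk1 lies at chrX:106186850-106187099, plus strand. The windows of Hif1a and Ldha fall inside the wider span that GENCODE gives those genes.
Hif1a: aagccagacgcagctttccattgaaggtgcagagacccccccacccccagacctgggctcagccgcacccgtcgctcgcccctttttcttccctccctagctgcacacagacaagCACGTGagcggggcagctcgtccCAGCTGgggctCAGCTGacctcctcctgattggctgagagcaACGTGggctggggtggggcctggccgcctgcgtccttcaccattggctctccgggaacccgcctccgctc
Egln3: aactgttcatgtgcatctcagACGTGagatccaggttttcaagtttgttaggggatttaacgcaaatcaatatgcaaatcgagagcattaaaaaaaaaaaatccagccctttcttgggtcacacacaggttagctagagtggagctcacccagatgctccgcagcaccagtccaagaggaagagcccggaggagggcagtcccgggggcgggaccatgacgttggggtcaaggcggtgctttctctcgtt
Ak4: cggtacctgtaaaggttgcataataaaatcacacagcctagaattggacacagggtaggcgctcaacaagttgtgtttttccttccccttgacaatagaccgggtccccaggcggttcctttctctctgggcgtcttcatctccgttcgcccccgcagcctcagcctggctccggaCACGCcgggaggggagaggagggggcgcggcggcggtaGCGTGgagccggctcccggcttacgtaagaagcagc
Ldha: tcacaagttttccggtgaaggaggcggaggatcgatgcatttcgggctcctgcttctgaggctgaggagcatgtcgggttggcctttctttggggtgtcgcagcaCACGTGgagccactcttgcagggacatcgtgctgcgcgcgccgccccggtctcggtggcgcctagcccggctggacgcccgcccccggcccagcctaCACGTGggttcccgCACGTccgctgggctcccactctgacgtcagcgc
Pgk1: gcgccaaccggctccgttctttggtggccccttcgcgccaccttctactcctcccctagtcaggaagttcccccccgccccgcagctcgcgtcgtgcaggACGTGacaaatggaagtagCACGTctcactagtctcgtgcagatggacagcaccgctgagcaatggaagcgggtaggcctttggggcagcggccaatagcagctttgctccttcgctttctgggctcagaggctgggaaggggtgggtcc

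The Hif1a window held 3 matches to the hypoxia core and 2 to CAGCTG, of which those to CAGCTG start 112 and 101 bases before the start site. The Egln3 window held 1 match to the hypoxia core, the Ak4 window 2, the Ldha window 5 and the Pgk1 window 2. Of the 32 members with a listed window, 28 (87.5%) held the hypoxia core, against 61.6% of the 9779 tested genes with a window and 41.5% of all genes with one. CAGCTG stood in the windows of 5 members (15.6%), against 13.8% of tested genes. The other E box searched, CAGGTG or its reverse complement CACCTG, stood in 6 (18.8%), against 18.2%. A match is a description of these letters and not evidence of binding. Slc2a3 had no window in the table.

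Total counts ran from 8813782 to 18677675 a library. The construct followed the labels: Esr1, the estrogen receptor gene, had 52.6 and 45.6 CPM in the E47-ER libraries at 4 h and 43.8 and 54.5 CPM at 16 h, against 0.316 and 0.211 CPM and 0.537 and 0.932 CPM in the GFP libraries, and Tcf3 was higher in every E47-ER library. All 14 ILC2 markers passed the filter, with a summed level of 20404 to 22770 CPM in E47-ER libraries and 25111 to 31113 CPM in GFP libraries. Gene by gene they were mixed: 8 of the 14 had a fold change, E47-ER against GFP, below 0 at 4 h and 9 at 16 h. By the test below with all libraries, 0 passed at 4 h. At 16 h 2 passed higher and 0 lower, where 1.25% and 0.337% of all genes did. T cell markers summed to 168 to 209 CPM in 7 libraries and 379 CPM in GFP 16 h replicate 2. Sums for markers of myeloid cells (14.6 to 29.0 CPM), ILC3 (61.7 to 75.6), NK cells and ILC1 (4.90 to 11.1), B cells (6.45 to 14.2) and erythroid cells (0.534 to 1.33) were small. The thymic stroma list summed to 10.9 to 22.8 CPM in E47-ER libraries and 5.56 to 9.72 CPM in GFP libraries, nearly all of it Epcam, with Foxn1 at 0 counts. The part of these marker differences in the results was not tested. GFP 16 h replicate 2 stood apart: it had the lowest total and a scaling factor of 0.854, against 1.01 to 1.03 in the others. It differed from its replicate by a median of 0.457 on the log2 scale, against 0.126 to 0.151 within the other groups, and genes with short transcripts were high in it. Values at 16 h are therefore mostly given with all 8 libraries. Where leaving this one out changed a member's direction, or its value by over 1.5 times, the value without it is given too. Calls in the fit without it are not repeated for every member. In that fit the remaining GFP 16 h library is taken to vary like the other groups.

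Most members stood lower in E47-ER cells than in GFP cells at both times, while Hif1a and Egln3 stood higher. At 4 h the fold change was below 0 for 31 of 33 members, with a median log2 fold change of -0.26, and at 16 h for 26 of 33, with a median of -0.40. Over all 13644 genes the medians were -0.00 and -0.01, and 50.9% and 50.4% of genes were below 0. Both E47-ER libraries lay below both GFP libraries for 27 members at 4 h, where 22.9% of all genes did so, and for 22 at 16 h, where 26.6% did. They lay above for 2 members at 4 h (22.4% of all genes) and for 3 at 16 h (27.8%). For 21 members they lay below at both times, and for Hif1a and Egln3 above at both. The share of all genes that agree at both times was not computed, here or for the calls given below. The comparisons at 4 h and 16 h share no library.

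By edgeR's quasi-likelihood test with Benjamini-Hochberg adjustment over all genes, at an adjusted p under 0.05, no member passed at 4 h with all 8 libraries, where 0.286% of genes did (0.271% higher and 0.0147% lower). At that time 794 of 13644 genes had an unadjusted p under 0.05. Among them were 9 members, 8 lower and 1 higher, and DESeq2 called 3 members among 109 genes. At 16 h, 3 members passed, where 1.59% of genes did: Hif1a and Egln3 rose, as did 1.25% of genes, and Ak4 fell, as did 0.337%. Without GFP 16 h replicate 2 the test passed 14 members lower and 1 higher at 4 h, where 4.33% of genes passed (1.68% lower and 2.64% higher), and 19 lower and 2 higher at 16 h, where 8.92% passed (4.53% lower and 4.39% higher). The 4 h fold changes barely moved, with a median of -0.26 again. That library enters the 4 h comparison only through the shared estimate of spread, the scaling and the filter on low counts. Without it the filter kept 14146 genes. With only the 4 libraries of 4 h in the fit, 12 members passed, where 3.38% of genes did (2.11% higher and 1.27% lower): Egln3 rose, and Ak4, Bnip3, Hk2, Ldha, Pfkl, Pgam1, Pgk1, Slc16a3, Slc2a1, Slc2a3 and Vegfa fell. In 16 h fits that left out any 1 of the 6 libraries other than GFP 16 h replicates 1 and 2, no member passed, and in the fit without GFP 16 h replicate 1, 18 were lower and 6 higher, where 48.6% of genes passed (24.4% lower and 24.3% higher). The 6 were Egln3, Hif1a, Hk1, Pfkfb3, Pfkm and Pfkp, and Pfkp was lower in the fit without replicate 2.

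**Figure D1:**
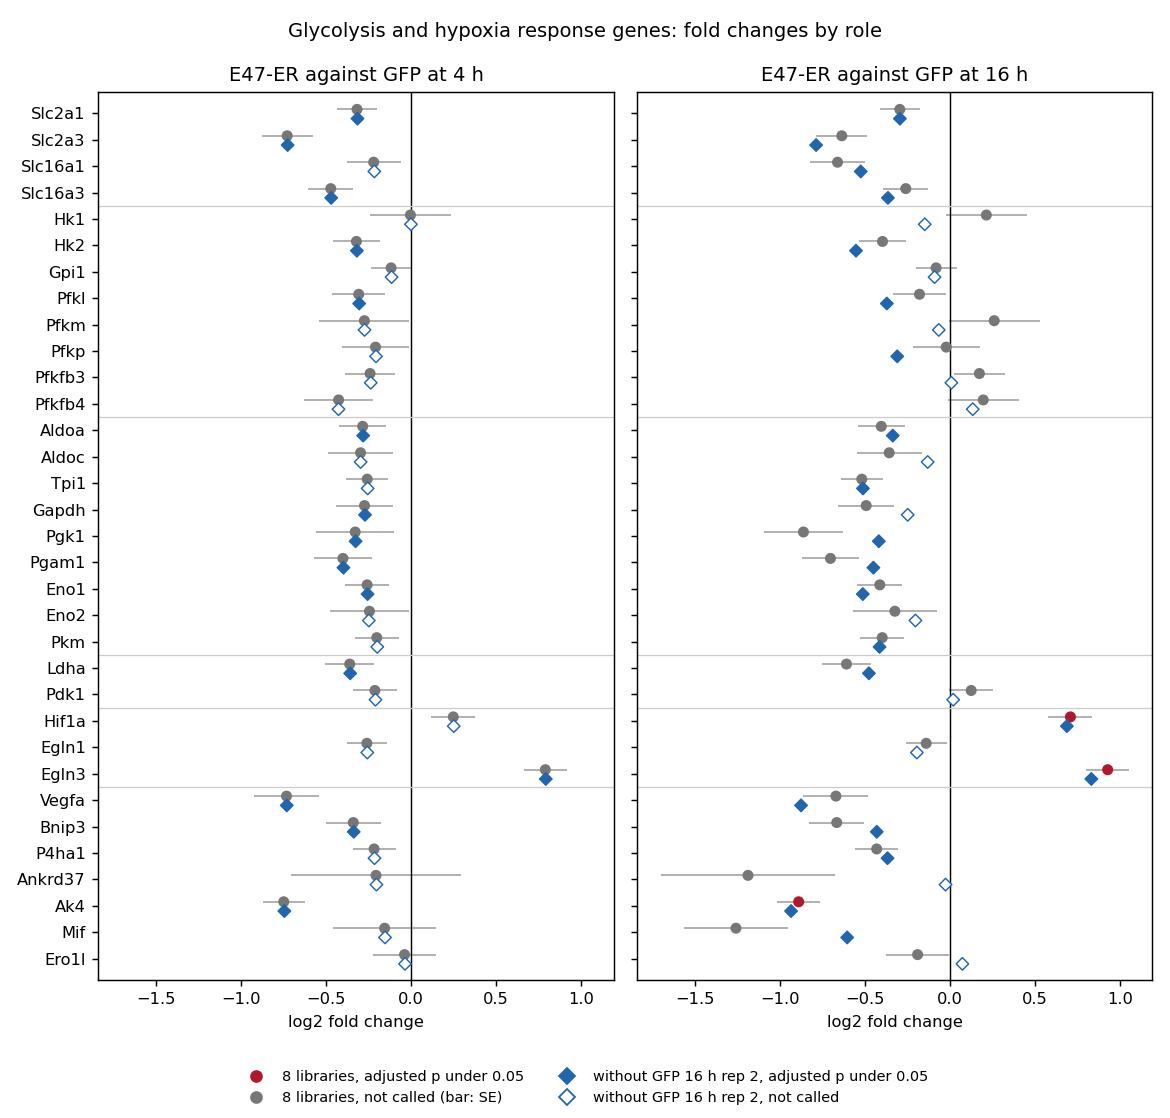
log2 fold change of each member, E47-ER against GFP, at 4 h (left) and 16 h (right), ordered by role from transporters at the top to other hypoxia response genes at the bottom. Circles show the fit with all 8 libraries with its SE, red where the adjusted p was under 0.05, and diamonds the fit without GFP 16 h replicate 2, filled where it was under 0.05; at 4 h all circles but those of Hif1a and Egln3 lie left of 0, and at 16 h 26 of 33 do, with Hk1, Pfkm, Pfkfb3, Pfkfb4 and Pdk1 also on the right.

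Among the oxygen-sensing members, the transcription factor subunit and 1 of its hydroxylases stood higher in E47-ER cells, and another hydroxylase, Egln1, did not. Egln3 (ENSMUSG00000035105, chromosome 12, 54178981 to 54203860, minus strand, GRCm38) encodes prolyl hydroxylase 3, which marks Hif1a and is itself induced by it. It had 321 and 307 CPM in the E47-ER libraries at 4 h, against 177 and 187 CPM in the GFP libraries. It had 328 and 325 CPM in the E47-ER libraries at 16 h, against 183 and 161 CPM in the GFP libraries. At each time both E47-ER libraries stood far above both GFP libraries, with no overlap. The log2 fold change was 0.79 (SE 0.125) at 4 h, with an edgeR adjusted p of 0.061, and 0.93 (SE 0.126) at 16 h, with an adjusted p of 0.0141. This was 1.73-fold and 1.9-fold. Without GFP 16 h replicate 2 it was 0.79 (edgeR adjusted p = 2.51e-07) and 0.83 (adjusted p = 3.33e-06). Across the fits that each left out 1 library, the 16 h value ran from 0.83 to 1.04 and the edgeR adjusted p reached 0.209.

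Hif1a (ENSMUSG00000021109, chromosome 12, 73901375 to 73947530, plus strand, GRCm38) had 1056 and 1045 CPM in the E47-ER libraries at 4 h, against 840.4 and 929 CPM in the GFP libraries. It had 1205 and 1286 CPM in the E47-ER libraries at 16 h, against 770.2 and 756 CPM in the GFP libraries. The groups did not overlap at either time, and the gap between them was wider at 16 h. Its log2 fold change was 0.25 (SE 0.129) at 4 h, with an edgeR adjusted p of 0.968, and 0.71 (SE 0.129) at 16 h, with an adjusted p of 0.0405. Without GFP 16 h replicate 2 these were 0.25 (edgeR adjusted p = 0.069) and 0.69 (adjusted p = 4.47e-05). Of all members it had the second smallest p for the difference between the 16 h and 4 h effects, 0.46 on the log2 scale (unadjusted p = 0.0349, edgeR adjusted p = 0.699). Across fits without 1 library the 16 h value ran from 0.67 to 0.76 and the edgeR adjusted p reached 0.453. A gene on the opposite strand, Gm15283, spans Hif1a and held 624 counts against 119392 for Hif1a over all libraries, and with the strand setting unknown reads of the pair cannot be told apart. In bulk libraries, fewer cells that express a gene and less of its RNA in each cell cannot be told apart, which holds for all values here.

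Egln1 encodes prolyl hydroxylase 2, the main oxygen sensor of the family, and moved the other way from Egln3 in the fold changes without passing the test. It had 148 and 148 CPM in the E47-ER libraries at 4 h, against 169 and 185 CPM in the GFP libraries, and 169 and 164 CPM in the E47-ER libraries at 16 h, against 189.8 and 178 CPM in the GFP libraries. The E47-ER libraries lay below the GFP libraries at both times, by -0.26 and -0.14 on the log2 scale (edgeR adjusted p = 0.895 and 0.468). Per length of transcript, Egln3 made up 59.7 and 57% of the summed level of the 3 hydroxylase genes in the E47-ER libraries at 4 h, against 42.1 and 43% in the GFP libraries. At 16 h it made up 58.9 and 58.8% in the E47-ER libraries, against 41.1 and 36.2% in the GFP libraries. The share was higher in every E47-ER library than in every GFP library.

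**Figure D2:**
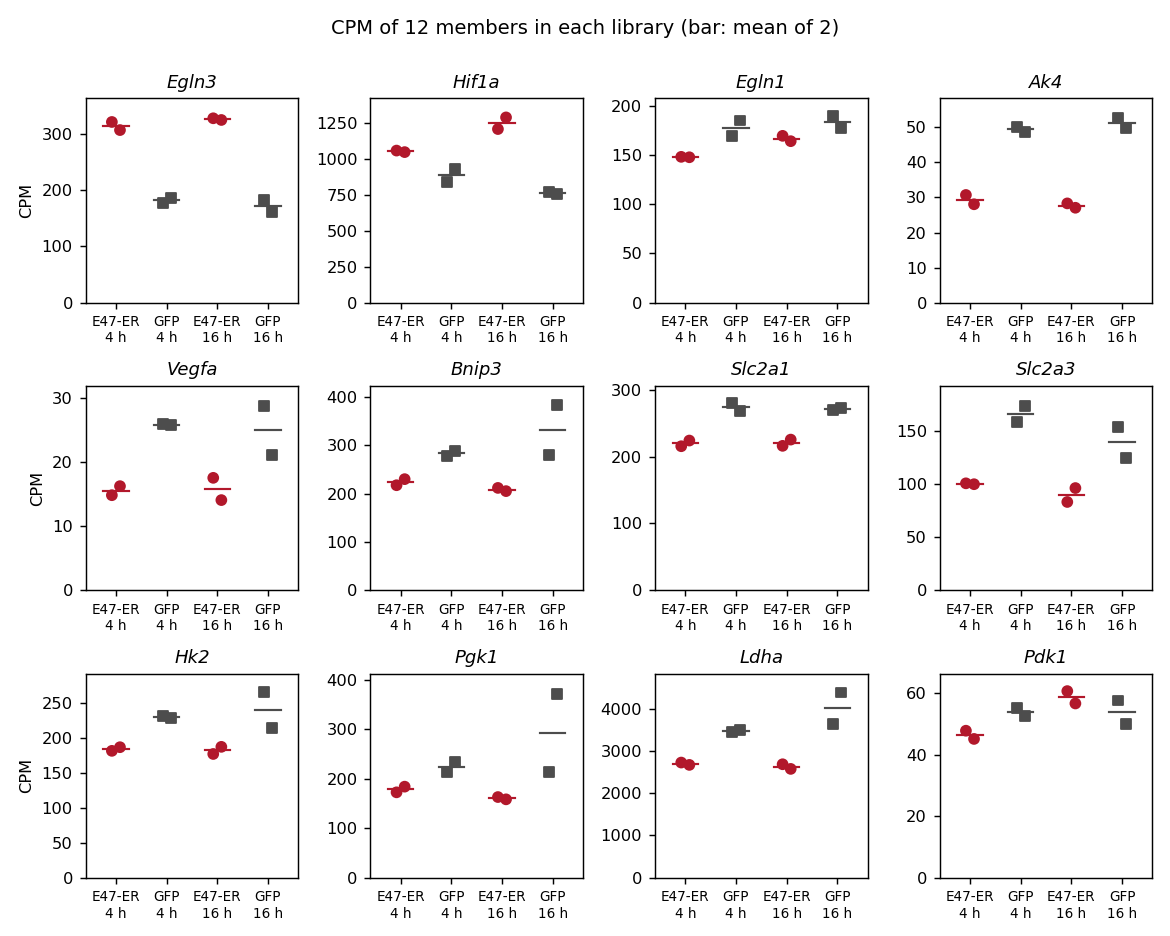
CPM (counts relative to library size) of 12 members in each of the 8 libraries, red circles for E47-ER and grey squares for GFP, with a bar at the mean of 2; every axis starts at 0. Within each time, Egln3 and Hif1a are higher in both E47-ER libraries, Pdk1 overlaps at 16 h, and the others are lower in both E47-ER libraries.

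The 7 other hypoxia response genes gave values below 0 at both times with all 8 libraries (6 of 7 at 16 h without GFP 16 h replicate 2), and Ak4 was the one that passed. Ak4 (ENSMUSG00000028527, chromosome 4, 101419277 to 101466995, plus strand, GRCm38) encodes a mitochondrial adenylate kinase. It had 30.7 and 28.1 CPM in the E47-ER libraries at 4 h, against 50.2 and 48.7 CPM in the GFP libraries. It had 28.3 and 27.1 CPM in the E47-ER libraries at 16 h, against 52.7 and 49.9 CPM in the GFP libraries. The E47-ER libraries held a little over 0.5 times the GFP level at both times, and both pairs of replicates lay close together. The log2 fold change at 16 h was -0.89 (SE 0.125), a ratio of 0.539, with an edgeR adjusted p of 0.0168, and -0.94 without GFP 16 h replicate 2 (adjusted p = 1.30e-05). At 4 h the ratio was 0.595, and without that library the edgeR adjusted p was 3.28e-05. Across fits without 1 library the 16 h value ran from -0.94 to -0.83 and the edgeR adjusted p reached 0.279.

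Vegfa encodes the growth factor that draws in blood vessels. It had 14.8 and 16.3 CPM in the E47-ER libraries at 4 h, against 25.9 and 25.8 CPM in the GFP libraries. At 16 h it had 17.6 and 14.1 CPM in the E47-ER libraries and 28.8 and 21.2 CPM in the GFP libraries. Both times the E47-ER libraries were lower, with a wider spread at 16 h. The log2 fold changes were -0.73 (SE 0.189) and -0.67 (SE 0.191) with all 8 libraries, with edgeR adjusted p of 0.372 and 0.127. Without GFP 16 h replicate 2 the Vegfa values were -0.73 and -0.88, and without replicate 1 its 16 h value was -0.40.

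Bnip3, a mitochondrial protein that promotes mitophagy, had 217 and 230.1 CPM in the E47-ER libraries at 4 h, against 279 and 288 CPM in the GFP libraries, and 212 and 205 CPM in the E47-ER libraries at 16 h, against 279.8 and 383 CPM in the GFP libraries. Its groups did not overlap, but the GFP libraries at 16 h differed from each other by more than the gap between the lower one and the E47-ER libraries. The log2 fold change at 16 h was -0.67 (edgeR adjusted p = 0.0977) with all libraries and -0.43 (adjusted p = 0.00344) without GFP 16 h replicate 2. P4ha1, a subunit of the hydroxylase that matures collagen, had -0.22 and -0.43, and passed without that library at 16 h (-0.37, edgeR adjusted p = 0.0278). Mif, a secreted cytokine with a short transcript, had 145 and 160.2 CPM in the E47-ER libraries at 4 h, against 171 and 169 CPM in the GFP libraries, and 146 and 131 CPM in the E47-ER libraries at 16 h, against 209 and 454 CPM in the GFP libraries. Its E47-ER libraries were lower at both times, and GFP 16 h replicate 2 held more than 2 times the level of its replicate. Its log2 fold change of -1.26 there became -0.61 without the high GFP library, where it passed (edgeR adjusted p = 2.61e-04). Ankrd37, a small ankyrin repeat protein, likewise had 3.61 and 3.81 CPM in the E47-ER libraries and 3.76 and 14 CPM in the GFP libraries at 16 h, and its value went to -0.03 without that library, against -1.19 with it. Ankrd37 also overlaps Lrp2bp and Ufsp2 on the opposite strand, and with the strand setting unknown its 590 counts could include theirs. Ero1l, an oxidase of the endoplasmic reticulum, overlapped between groups at both times, with -0.04 and -0.19, and its 16 h value was 0.07 without GFP 16 h replicate 2.

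All 4 transporters were lower in E47-ER cells at both times, with median log2 fold changes of -0.40 and -0.47. Slc2a3 (ENSMUSG00000003153, chromosome 6, 122727809 to 122801640, minus strand, GRCm38) encodes GLUT3, a high-affinity glucose transporter. It had 101 and 99.95 CPM in the E47-ER libraries at 4 h, against 159 and 174 CPM in the GFP libraries, and 83.2 and 96.3 CPM in the E47-ER libraries at 16 h, against 154 and 125 CPM in the GFP libraries. No library of one group reached the other at either time. Its 16 h log2 fold change was -0.64 (SE 0.149), with an edgeR adjusted p of 0.0883. Without GFP 16 h replicate 2 Slc2a3 fell at 4 h (edgeR adjusted p = 4.54e-06) and at 16 h (log2 fold change -0.79, adjusted p = 1.49e-05).

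Slc2a1, or GLUT1, the transporter of most growing cells, differed less. It had 216 and 224 CPM in the E47-ER libraries at 4 h, against 280.2 and 269 CPM in the GFP libraries, and 216 and 226 CPM in the E47-ER libraries at 16 h, against 269.97 and 273 CPM in the GFP libraries. The groups were apart at both times with tight replicates, at -0.32 (SE 0.116) and -0.30 (SE 0.116) on the log2 scale. Neither passed with all libraries, and both did without GFP 16 h replicate 2 (edgeR adjusted p = 0.0143 and 0.0449). Per length, Slc2a3 made up 27.8 and 26.8% of the pair in the E47-ER libraries at 4 h and 24 and 26% at 16 h. It made up 31.8 and 34.8% and 32 and 27.3% in the GFP libraries at those times.

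Of the lactate exporters, Slc16a3 (MCT4) had 217 and 216 CPM in the E47-ER libraries at 4 h, against 285 and 315 CPM in the GFP libraries, and 236 and 256 CPM in the E47-ER libraries at 16 h, against 315 and 274 CPM in the GFP libraries. It was lower in all E47-ER libraries, by -0.47 (SE 0.132) at 4 h and -0.26 (SE 0.132) at 16 h. Neither passed with all libraries, but Slc16a3 passed at 4 h with only the 4 libraries of that time. The 16 h value of Slc16a3 was -0.37 without GFP 16 h replicate 2 and -0.13 without replicate 1. Slc16a1 (MCT1), which carries lactate in either direction, had 48.1 and 51.9 CPM in the E47-ER libraries at 4 h, against 64 and 52.5 CPM in the GFP libraries, and 41.7 and 36.8 CPM in the E47-ER libraries at 16 h, against 56.2 and 68.3 CPM in the GFP libraries. At 4 h the gap was narrow and at 16 h wider, -0.22 and -0.66, neither past the test with all libraries. The 16 h value of Slc16a1 was -0.53 without GFP 16 h replicate 2 and -0.78 without replicate 1.

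The 8 genes of the upper pathway, where glucose is trapped and committed, varied among themselves. Hk2, the inducible hexokinase, had 181 and 186 CPM in the E47-ER libraries at 4 h, against 231 and 228 CPM in the GFP libraries, and 177 and 187 CPM in the E47-ER libraries at 16 h, against 265 and 213 CPM in the GFP libraries. The E47-ER libraries were lower at both times, at -0.32 and -0.40 on the log2 scale with all 8 libraries (edgeR adjusted p = 0.851 and 0.160). The 16 h value of Hk2 was -0.55 without GFP 16 h replicate 2 and -0.21 without replicate 1. Hk1, the constitutive hexokinase, overlapped at both times, with 431 and 406 CPM in the E47-ER libraries at 4 h, against 441 and 398 CPM in the GFP libraries, and 377 and 397 CPM in the E47-ER libraries at 16 h, against 427 and 239.9 CPM in the GFP libraries. The 16 h fold change of Hk1 was 0.21 with all libraries and -0.15 without GFP 16 h replicate 2, and Hk1 was higher without replicate 1 (0.71, edgeR adjusted p = 4.05e-06). Hk2 made up 24.6 and 26.3% of the pair per length in the E47-ER libraries at 4 h, against 28.9 and 30.8% in the GFP libraries, and 26.7 and 26.8% at 16 h, against 32.6 and 40.8%.

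Among the phosphofructokinases, which catalyse the committed step, Pfkl had -0.31 at 4 h and -0.18 at 16 h, neither past the test with all libraries. Its 16 h value was -0.37 without GFP 16 h replicate 2 and 0.06 without replicate 1, so its sign depended on the library left out. Pfkp had -0.21 and -0.02, and its direction at 16 h depended on which GFP library was left out: it was lower without replicate 2 (-0.31, edgeR adjusted p = 0.0375) and higher without replicate 1 (0.35, edgeR adjusted p = 0.00522). Pfkm, whose 2137 counts are fewer than the 6375 of Senp1 on the opposite strand, overlapped between groups, at -0.28 and 0.26. Without GFP 16 h replicate 2 its 16 h value was -0.07, and without replicate 1 it was higher (0.77, edgeR adjusted p = 0.00553). Pfkfb3 makes fructose 2,6-bisphosphate, the activator of phosphofructokinase. It had 42.9 and 40.01 CPM in the E47-ER libraries at 4 h, against 51 and 47 CPM in the GFP libraries, and 44.5 and 42.8 CPM in the E47-ER libraries at 16 h, against 43.2 and 34 CPM in the GFP libraries. The E47-ER libraries were lower at 4 h and overlapped with the GFP libraries at 16 h, at -0.24 (SE 0.147) and 0.17 (SE 0.149), neither past the test. The 16 h value was 0.01 without GFP 16 h replicate 2, and Pfkfb3 was higher without replicate 1 (0.38, edgeR adjusted p = 0.021). Its relative Pfkfb4 had 8.58 and 7.7 CPM in the E47-ER libraries at 4 h, against 9.17 and 12.7 CPM in the GFP libraries, and 11 and 9.81 CPM in the E47-ER libraries at 16 h, against 9.4 and 8.66 CPM in the GFP libraries: lower at 4 h and higher at 16 h, by -0.43 and 0.19 (0.13 at 16 h without GFP 16 h replicate 2), neither past the test. Gpi1, which turns glucose 6-phosphate into fructose 6-phosphate, had a narrow gap without overlap, -0.12 and -0.08, and did not pass under either fit (edgeR adjusted p = 0.482 and 0.612 without GFP 16 h replicate 2).

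The 9 genes from aldolase to pyruvate kinase, which split the sugar and harvest ATP, had values below 0 throughout: all 9 fold changes were below 0 at both times, from -0.40 to -0.20 at 4 h and from -0.86 to -0.32 at 16 h (-0.51 to -0.13 without GFP 16 h replicate 2). Aldoa, Pgk1, Pgam1 and Eno1 passed at both times without GFP 16 h replicate 2, Gapdh at 4 h, and Tpi1 and Pkm at 16 h, while Aldoc and Eno2, the minor forms in these cells, passed at neither. Per length, Aldoa made up 98.96 to 99.2% of the aldolase pair and Eno1 99.2 to 99.5% of the enolase pair. Pgk1 (ENSMUSG00000062070, chromosome X, 106187100 to 106203699, plus strand, GRCm38), the first ATP-making step, had 172 and 184 CPM in the E47-ER libraries at 4 h, against 213 and 234 CPM in the GFP libraries. It had 163 and 158 CPM in the E47-ER libraries at 16 h, against 214 and 371 CPM in the GFP libraries. The E47-ER libraries were lower at both times, and GFP 16 h replicate 2 stood far above every other library. With it the 16 h log2 fold change was -0.86 (SE 0.233) (edgeR adjusted p = 0.116) and without it -0.42 (SE 0.0956) (adjusted p = 0.00624).

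Pgam1, which moves the phosphate of 3-phosphoglycerate, had 344 and 324 CPM in the E47-ER libraries at 4 h, against 435 and 448 CPM in the GFP libraries, and 339 and 319 CPM in the E47-ER libraries at 16 h, against 448 and 625 CPM in the GFP libraries. It was lower in every E47-ER library, with a 16 h value of -0.70 with all libraries, and at -0.40 and -0.45 without GFP 16 h replicate 2 (edgeR adjusted p = 0.00206 and 0.00227). Tpi1, which interconverts the triose phosphates, had 791 and 789 CPM in the E47-ER libraries at 4 h, against 918 and 971 CPM in the GFP libraries, and 762 and 729 CPM in the E47-ER libraries at 16 h, against 1058 and 1079 CPM in the GFP libraries. Its GFP replicates at 16 h lay close together, and the 16 h value was -0.52 with that library and -0.51 without it (edgeR adjusted p = 0.0898 and 5.28e-04). Aldoa, which cleaves fructose 1,6-bisphosphate, had -0.28 and -0.34 without that library (edgeR adjusted p = 0.036 and 0.024), and Eno1, which makes phosphoenolpyruvate, -0.26 and -0.51 (edgeR adjusted p = 0.0492 and 4.76e-04). Eno2, the neuronal enolase, had 7.55 and 10.1 CPM in the E47-ER libraries at 4 h, against 9.04 and 11.8 CPM in the GFP libraries, and 7.41 and 5.89 CPM in the E47-ER libraries at 16 h, against 7.59 and 9.19 CPM in the GFP libraries, with overlap at 4 h and wide scatter beside its low level. The 16 h value of Eno2 was -0.32 with all libraries and -0.20 without GFP 16 h replicate 2. For Aldoc these were -0.36 and -0.13. Pkm, the pyruvate kinase gene, averaged 2940 ± 0.332 CPM in E47-ER cells and 3878 ± 31.4 CPM in GFP cells at 16 h (SD, n = 2 each). Gapdh, often used as a reference gene, averaged 473 ± 6.88 CPM in E47-ER cells and 572 ± 11.1 CPM in GFP cells at 4 h (SD, n = 2 each), a log2 fold change of -0.27. Its 16 h value was -0.49 with all libraries, -0.25 without GFP 16 h replicate 2 and -0.69 without replicate 1. With all libraries Gapdh passed at neither time. Pseudogene copies that carry the gene's own symbol held 342 counts beside 63631 for Gapdh and 167 beside 24203 for Pgk1. Copies under other names were not searched. How reads that match several places were counted is not given, so these counts cannot show what copies took.

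At the fate of pyruvate, Ldha values lay lower in E47-ER cells at both times and Pdk1 values at 4 h. Ldha (ENSMUSG00000063229, chromosome 7, 46841475 to 46855627, plus strand, GRCm38), lactate dehydrogenase A, had 2727 and 2671 CPM in the E47-ER libraries at 4 h, against 3444 and 3491 CPM in the GFP libraries, and 2686 and 2577 CPM in the E47-ER libraries at 16 h, against 3646 and 4385 CPM in the GFP libraries. All E47-ER libraries lay below all GFP libraries. The 16 h log2 fold change was -0.61 (SE 0.145) (edgeR adjusted p = 0.0906), and Ldha fell at both times without GFP 16 h replicate 2 (-0.48 at 16 h, edgeR adjusted p = 0.00472 and 0.00115). Pdk1, the kinase that shuts pyruvate dehydrogenase, had 47.9 and 45.2 CPM in the E47-ER libraries at 4 h, against 55.2 and 52.7 CPM in the GFP libraries, and 60.8 and 56.7 CPM in the E47-ER libraries at 16 h, against 57.7 and 49.9 CPM in the GFP libraries. The E47-ER libraries lay below the GFP libraries at 4 h and overlapped with them at 16 h, at -0.21 (SE 0.13) and 0.12 (SE 0.13) (0.02 without GFP 16 h replicate 2), and neither passed.

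Together the members took 1.87 ± 0.00902% of counts in E47-ER cells at 4 h and 2.15 ± 0.0088% in GFP cells. These shares are of unscaled library totals, unlike CPM. At 16 h they took 1.83 ± 0.0048% in E47-ER cells, against 2.11 ± 0.132% in GFP cells (SD, n = 2 each). Aldolase to pyruvate kinase took 0.894 ± 0.000372% in E47-ER cells and 1.07 ± 0.00646% in GFP cells at 4 h, and the transporters 0.0597 ± 0.0000185% and 0.0814 ± 0.000977% in the same order. The oxygen-sensing genes went the other way, with 0.154 ± 0.00369% in E47-ER cells and 0.127 ± 0.00736% in GFP cells at 4 h. At 16 h these were 0.178 ± 0.00388% for E47-ER and 0.105 ± 0.017% for GFP. In level per kilobase of transcript, Aldoa, Ldha and Pkm led in GFP cells at 4 h, with 2186, 1910.4 and 1538 CPM per kb, and Pfkfb4 was lowest with 3.13. The same 3 genes led in E47-ER cells at 4 h, with 1794, 1487 and 1337 CPM per kb. Egln3 had 118 CPM per kb in E47-ER cells at 4 h, between Bnip3 (127) and Hk1 (97.8), and 68.3 in GFP cells, between Pfkl (69.1) and Pfkp (66.7).

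**Figure D3:**
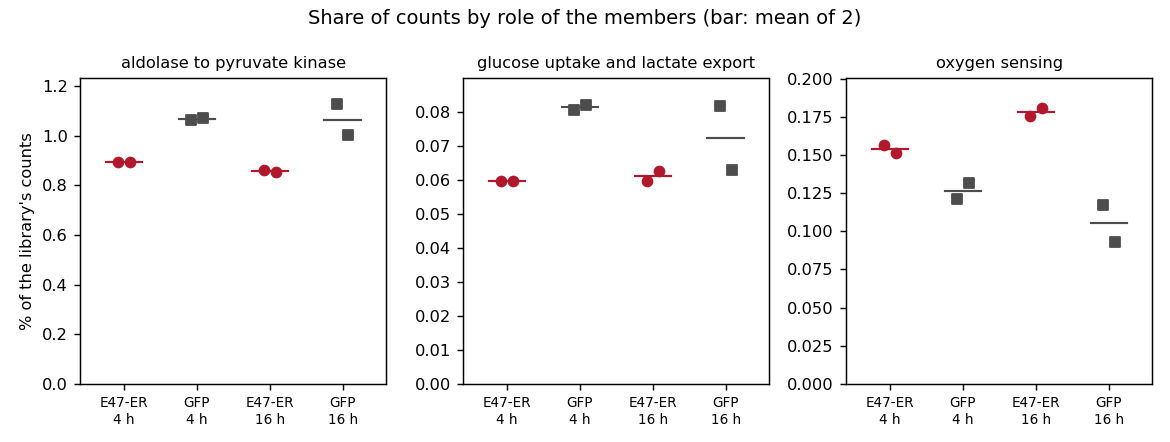
Share of each library's counts, in percent, taken by the 9 genes from aldolase to pyruvate kinase, the 4 transporters and the 3 oxygen-sensing genes, red circles for E47-ER and grey squares for GFP, with a bar at the mean of 2. The first 2 groups of genes are lower in E47-ER libraries and the oxygen-sensing genes higher at both times. Shares are of unscaled library totals, unlike CPM. On that basis the second GFP library at 16 h, with a scaling factor of 0.854, is the low square in each panel.

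The 16 h values of members with short transcripts rest more on GFP 16 h replicate 2 than those of long ones. Against the other GFP libraries, that library was higher by a median log2 of 0.87 for the shortest decile of all tested genes (under 955 bases) and lower for the longest decile (-0.425, over 6345 bases). For the 9 members with transcripts under 2000 bases it exceeded its replicate by a median of 0.47, and their median 16 h fold change was -0.67 with it and -0.43 without it. For the other 24 members these values were -0.15, -0.23 and -0.25. At 4 h, where that library is in neither group, the medians of the short and long members were -0.29 and -0.25.

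**Figure D4:**
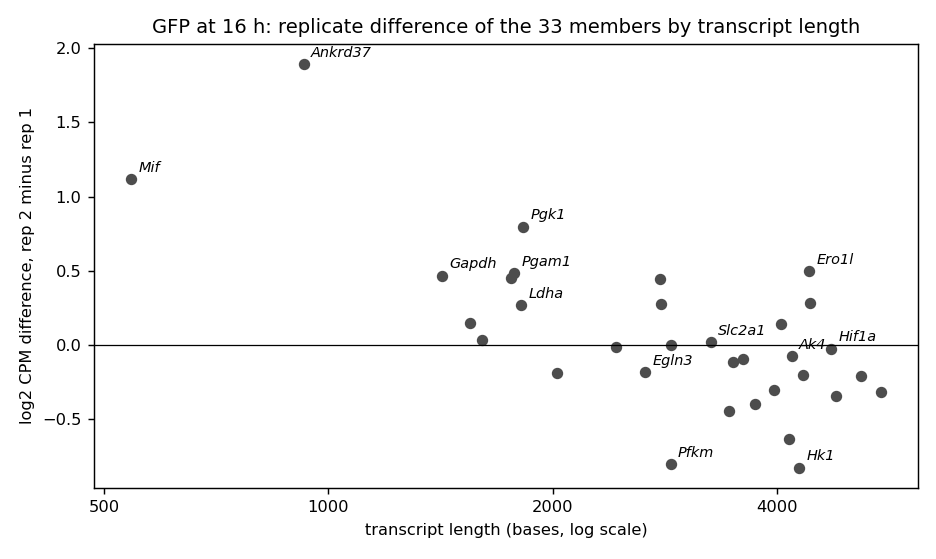
Difference between the GFP libraries at 16 h (log2 CPM, replicate 2 minus replicate 1) for each of the 33 members against transcript length in bases on a log scale. Mif and Ankrd37, the shortest, are highest in replicate 2, and Hk1 and Pfkm are lowest, while Hif1a, Egln3 and Ak4 lie near 0.

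Between the times, no member passed in either cell type. In 16 h against 4 h E47-ER cells, 0.0147% of all genes passed the edgeR test, and DESeq2 called 20 genes and no member. An unadjusted p under 0.05 was reached by 695 of 13644 genes and by 1 member. That member was Pdk1, at 0.34 (SE 0.13) on the log2 scale (unadjusted p = 0.0316, edgeR adjusted p = 0.981, or 0.0594 without GFP 16 h replicate 2). Without that library no member passed in this comparison, where 3.08% of genes did (1.74% higher and 1.34% lower). Next by p with all libraries came Slc16a1 at -0.35, Hif1a at 0.25, Pfkfb4 at 0.35 and Eno2 at -0.41. E47-ER libraries at 16 h lay above those at 4 h for 9 members and below for 13, where 25.9% and 24.5% of all genes did. In GFP cells 0.0% of genes passed, and DESeq2 called none. An unadjusted p under 0.05 was reached there by 1238 of 13644 genes and by 1 member (Mif, 0.96, or 0.30 without GFP 16 h replicate 2). GFP libraries at 16 h lay above those at 4 h for 5 members and below for 3 (18.7% and 18% of genes). Pfkfb3 (-0.34), Slc2a3 (-0.25), Pgk1 (0.38) and Hif1a (-0.21) had the next smallest p there. When GFP 16 h replicate 2 was left out, these were -0.18, -0.11, -0.07 and -0.20, so that Pgk1 changed sign, and no member passed, where 0.00707% of genes did, all of them higher (0.00707%). These comparisons share their libraries with those of E47-ER against GFP.

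The difference between the 16 h and 4 h effects of E47-ER was past the threshold for no member and 0.0% of genes in edgeR. DESeq2 called none either. An unadjusted p under 0.05 was reached by 671 of 13644 genes and by 2 members. The 2 were Mif (-1.10, or -0.45 without GFP 16 h replicate 2) and Hif1a (0.46, or 0.44). Pfkfb4 (0.62), Pfkfb3 (0.41, or 0.25) and Slc16a1 (-0.44) followed. Without that library no member passed for this difference, where 0.0424% of genes did (0.0212% higher and 0.0212% lower). In the fits for each time without it the members passing with lower values were 13 at both times, Gapdh at 4 h alone, and Mif, P4ha1, Pfkp, Pkm, Slc16a1 and Tpi1 at 16 h alone.

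Other genes of the same and adjoining pathways were set beside the members. Of 20 further glycolysis genes, 13 were tested and none passed at either time with all libraries, with median log2 fold changes of -0.18 and 0.05 (-0.10 and -0.08 over 14 genes without GFP 16 h replicate 2). Among them were Ldhb, the heart-type lactate dehydrogenase, at -0.30 and -1.04 (-0.79 at 16 h without that library), and Slc2a8, the transporter GLUT8, at -0.21 and 0.51 (0.45). Without that library 1 of the 14 passed, the phosphoglucomutase Pgm1 at 16 h (-0.42, edgeR adjusted p = 0.00519). Of 27 further hypoxia response genes 24 were tested, with medians of -0.15 and -0.23. At 16 h 1 rose and 1 fell. Rora, a transcription factor that ILC2 require and a known hypoxia target, had 151 and 158 CPM in the E47-ER libraries at 16 h, against 78.6 and 75.4 CPM in the GFP libraries, with no overlap (log2 fold change 1.0, edgeR adjusted p = 0.0139). Fam162a, a mitochondrial protein induced by Hif1a, had 52.2 and 47.8 CPM in the E47-ER libraries at 16 h, against 93.7 and 141 CPM in the GFP libraries, also apart (-1.23, edgeR adjusted p = 0.0307, and -0.92 without GFP 16 h replicate 2). Without that library 2 of the 24 were higher and 6 lower at 4 h, and 2 higher and 7 lower at 16 h: Rora at both times with Tfrc at 4 h and Bhlhe40 at 16 h were higher, and P4ha2, Cited2, Mxi1, Fam162a, Stc2 and Anxa2 were lower at both, with Mt1 at 16 h. Rora is also one of the 14 ILC2 markers. Their sum went the other way, while 2 of them, Rora included, passed higher at 16 h with all libraries and 0 lower.

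Of 12 other genes of the oxygen-sensing machinery, all tested, none passed at either time with or without GFP 16 h replicate 2, and the medians were 0.03 and 0.08 (0.03 and -0.05 without it). Arnt, the partner of Hif1a, had -0.02 and 0.32 (0.08 at 16 h without that library), Vhl, the ligase subunit that binds hydroxylated Hif1a, -0.06 and -0.32 (-0.06), and Epas1, the related HIF-2 subunit, 0.20 and 0.26. Arnt, Vhl and Epas1 were chosen for their roles after their values were seen. By the fixed rule of smallest p, Rbx1 and Elob, subunits of the ligase that Vhl serves, had -1.16 and -0.80 at 16 h, and -0.21 and -0.18 without GFP 16 h replicate 2.

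The pathways that use glucose carbon elsewhere lay closer to 0, and no gene of them passed with all 8 libraries. Medians at 4 h and 16 h were -0.09 and -0.26 (-0.12 at 16 h without GFP 16 h replicate 2) for 8 pentose phosphate genes, -0.08 and -0.08 (-0.03) for 11 of 12 genes of pyruvate entry into mitochondria, -0.06 and -0.15 for 17 genes of the tricarboxylic acid cycle, and -0.02 and 0.08 (0.03) for 8 of 11 genes that restrain glucose use or make glucose. When GFP 16 h replicate 2 was left out, no gene of these lists was higher, 1 was lower at 4 h and 4 at 16 h. Pgd, of the pentose phosphate pathway, had -0.21 and -0.44, and passed at 16 h without GFP 16 h replicate 2 (edgeR adjusted p = 0.00344). Among the other genes with the smallest p at 16 h, Taldo1 had -0.11 and -0.38, Pdhb, a subunit of pyruvate dehydrogenase, -0.08 and -0.65 (-0.30), and Pdk2, a kinase that inhibits that enzyme, 0.10 and 1.01 (0.61), the values in parentheses again without that library. Mdh2, the mitochondrial malate dehydrogenase, had -0.15 and -0.39 (-0.25 without it), and of the gluconeogenic genes Pck2 had -0.28 and -0.36 (at 16 h -0.44 without it, edgeR adjusted p = 0.0295) and G6pc3 -0.04 and -0.30. Mdh1, the cytosolic malate dehydrogenase, had -0.27 and -0.87 with all libraries, and -0.27 and -0.30 without that library (edgeR adjusted p = 0.048 and 0.0443). Of 12 tested upstream regulators none passed with all libraries, with medians of -0.01 and 0.28 (-0.01 and 0.04 without GFP 16 h replicate 2). Mlxip, a glucose-responsive transcription factor, had 0.33 and 0.56, or 0.33 and 0.36 without that library, where it rose at 4 h (edgeR adjusted p = 0.0479). Myc itself, chosen for its role after its values were seen, had -0.80 and -0.31, and fell without GFP 16 h replicate 2 (-0.80 and -0.57, edgeR adjusted p = 1.03e-05 and 0.00256). Mycn, the N-Myc gene, had 20.3 and 23.7 CPM in the E47-ER libraries at 4 h, against 33.9 and 48.5 CPM in the GFP libraries, and 21 and 25 CPM in the E47-ER libraries at 16 h, against 38.4 and 44.9 CPM in the GFP libraries. Its groups did not overlap (-0.91 and -0.85, edgeR adjusted p = 0.237 and 0.0953), and it fell at both times without GFP 16 h replicate 2 (edgeR adjusted p = 0.00241 and 0.0196).

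**Figure D5:**
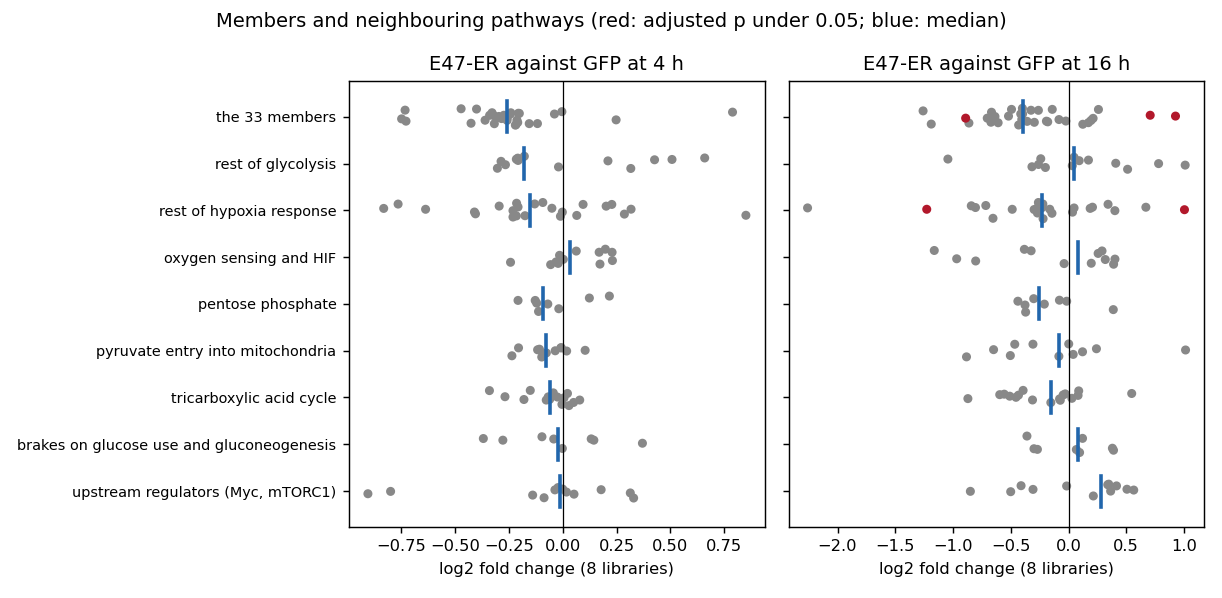
log2 fold change, E47-ER against GFP with all 8 libraries, of the 33 members (top) and of the tested genes of 8 neighbouring lists at 4 h (left) and 16 h (right). Points are genes, red where the adjusted p was under 0.05, and blue bars are medians; the members' median lies at -0.26 and -0.40, and the medians of the other lists between -0.26 and 0.28.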

How the data were processed

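The authors deposited a table of raw read counts per Ensembl gene, with 1 column per library. The submitters' processing notes name mm10 and DESeq2, with no role. Read alignment, counting, strandedness and annotation were not given in the sources used here. Per the labels' protocols, the samples were total RNA in Trizol, sequenced on an Illumina instrument. Gene symbols, coordinates and transcript lengths were taken from GENCODE release M21 (GRCm38), which matched 50462 of 50686 IDs. Promoter windows came from a RefSeq table. The members and all gene lists were chosen with earlier results of these data known.

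Counts were tested in R 4.3.3 with edgeR 4.0.16: filterByExpr with a minimum count of 10, TMM scaling, 1 mean per group over all 8 libraries, robust quasi-likelihood fits and Benjamini-Hochberg adjustment over the 13644 genes kept, called at an adjusted p under 0.05. CPM values use TMM-scaled library sizes. Each SE came from the log2 fold change and the square root of its F statistic. Level per kb divides CPM by transcript length. The fit was run on simulated counts in which no library stood apart by transcript length. That run therefore cannot show how the fit behaves with GFP 16 h replicate 2. Alternatives were DESeq2 1.42.0, relative log expression or library totals for scaling, other filters, no robust fit, transcript length offsets (loess span 0.5), single-time fits, replicate blocks, a threshold of 0.1 and leaving out each library. Limma 3.58.1 was loaded with edgeR, and Python 3.11.15, pandas 2.3.3 and matplotlib 3.10.9 made the summaries and plots.

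Values in every library are given for called members, for the 8 members with the smallest p in each comparison of E47-ER against GFP, and for 10 always named. The 5 members with the smallest p are named for the other comparisons, and the called genes, or otherwise the 2 with the smallest p at 16 h, for each other list. Further genes named in the text were chosen after their values were seen. Libraries were grouped by the GEO labels.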

Additional observations from a re-analysis of the deposited data

Results flagged for a closer look

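Pfkfb4, the relative of Pfkfb3 with the lowest level per length in GFP cells at 4 h, had fold changes of opposite sign at the 2 times. Both E47-ER libraries lay below both GFP libraries at 4 h and above both at 16 h. The difference between the 16 h and 4 h effects was 0.621 on the log2 scale, and the edgeR test of that difference gave an unadjusted p of 0.0656 and an adjusted p of 0.699, so the difference did not pass.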

How the results depend on the processing

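None of the 3 members called with all 8 libraries changed direction under any alternative run. Among members not called there, Pfkp at 16 h was called lower without GFP 16 h replicate 2 (also with length offsets) and higher without GFP 16 h replicate 1. Leaving out each library in turn, all genes called ranged from 1 to 619 at 4 h, 15 to 7022 at 16 h, 0 to 5124 for the difference between the effects, 0 to 440 between times in E47-ER cells and 0 to 6034 in GFP cells. Members called ranged from 0 to 16, 0 to 24, 0 to 17, 0 to 0 and 0 to 13 in the same order. Their median log2 fold changes ranged from -0.2994 to -0.2409, -0.3976 to -0.3373, -0.0997 to 0.004199, -0.05884 to -0.03538 and -0.02041 to 0.02528. The medians for the difference and between times in GFP cells lay near 0 and took both signs. Hif1a, Egln3 and Ak4 at 16 h were each called in 2 of these 8 fits, those without either GFP library of 16 h.

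At 4 h, against 0 members and 39 genes called with the fit described, DESeq2 called 3 and 109, length offsets 3 and 77, length offsets without GFP 16 h replicate 2 (chosen after seeing the data) 16 and 671, no filter 3 and 165, only the 4 libraries of that time 12 and 442, a threshold of 0.1 2 and 68, and library totals 19 genes. At 16 h, against 3 members and 217 genes, these were 12 and 942 with DESeq2, 5 and 402 with length offsets, 20 and 1263 with length offsets without that library, 11 and 1816 with no filter, 0 and 6 with only the 4 libraries of that time, and 10 and 500 at a threshold of 0.1. Ak4 was lost with library totals, and Hif1a with length offsets. For the difference between the effects, against 0 members and 0 genes, no filter gave 1 and 53, and length offsets without GFP 16 h replicate 2 gave 7 genes. Between times in E47-ER cells, against 0 members and 2 genes, DESeq2 gave 20 genes, length offsets without that library 1 member and 530 genes, no filter 53 genes, and library totals and a minimum count of 30 gave 0 genes. In GFP cells, against 0 and 0, no filter gave 1 and 305, and length offsets without that library 1 gene. With library totals, the members' median was -0.2707 at 16 h (all genes 0.115), 0.0482 for the difference (0.125) and -0.09656 between times in GFP cells (-0.106). The causes were not tested.

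Correlations of same-numbered libraries' deviations ran from -0.09 to 0.202. With 2 libraries a group they cannot show whether the libraries were paired by animal or culture. With a replicate block within each time, 11 genes were called at 4 h, and 54 genes and 0 members at 16 h. With a block across times, 1 member was higher (Egln3) and 1 lower (Ak4) at 16 h, and 0 genes passed between times in E47-ER cells. The low depth of GFP 16 h replicate 2 limits the precision of the genes with fewest counts, Ankrd37, Eno2 and Pfkfb4 among the members.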
